A study of Arabidopsis thaliana with 8 samples.

Results

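The genes described here encode enzymes that build, trim or modify the polysaccharides of the plant cell wall, together with a few proteins that reside in the wall. They were chosen by symbol: a gene was taken if its name in the array annotation was 1 of 22 wall gene prefixes (such as XTH, TBL, GH9B or CSLC) followed by a number, with XTH26 left out. This gave 59 genes, each with 1 probe set, of 13350 genes named on the array. Among RefSeq gene symbols 252 fit the same rule, and the genes among them without a named probe set are not analysed here. The 59 genes fell into 13 families, with 22 TBL, 10 GH9B, 8 XTH, 4 CSLC, 3 GH9C and 3 SKS genes, and 2 or fewer of each other family. No gene of the CESA, FLA, AGP, LRX or COBL families was among them, so cellulose synthases and most structural wall glycoproteins are outside what follows. PRP39 met the rule by its letters, but it encodes a pre-mRNA-processing factor and no wall protein.

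The arrays came from dark-grown Arabidopsis thaliana seedlings of the wild type Col-0, which were 3 days old. In the ethylene group (4 arrays) seedlings grew for 68 h in air and then received 10 ppm ethylene, a gaseous plant hormone, for 4 h. In the air group (4 arrays) seedlings spent 72 h in the dark without that treatment. Each group had 2 replicas in each of 2 experiments, named here by experiment and replica (1-1, 1-2, 2-1, 2-2), and nothing in the labels says that replicas were separate cultures, so a p-value measures the spread between these arrays, which may be partly technical. The labels name no organ, and in RNA from seedlings fewer cells of a type and less RNA per cell cannot be told apart.

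The wall of a growing plant cell consists of cellulose fibrils in a matrix of xyloglucan, other hemicelluloses and pectin. Its extension depends on the supply of new polysaccharide and on enzymes that cut, join, acetylate or de-esterify what is already there. Ethylene shortens and thickens the hypocotyl and root of dark-grown seedlings, a growth change in which the wall takes part.

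Values are scaled linear intensities. Differences are ethylene minus air on the scale log2(intensity + 16), which understates changes of dim genes, and a gene passed if its limma p-value, adjusted over all 15922 probe sets tested, was under 0.05. Of the 59 genes, 46 were bright enough to be tested. The other 13, with intensities between 2.7 and 424.7, lay under the filter that left out the dimmest 30% of probe sets. In none of them were the groups separated. The share separated among all probe sets under the filter was not counted, so no absence of change is read from this.

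Ethylene raised the endoglucanase gene GH9B12 and the glucan synthase gene CSLC12, and lowered the polysaccharide acetyltransferase-family genes TBL37 and TBL39, the pectin methylesterase gene PME61 and the xyloglucan-modifying gene XTH21. Of the 46 tested genes, 2 thus rose and 4 fell, beside 1.56% of all tested probe sets that rose and 2.55% that fell. Only GH9B12, TBL37 and PME61 passed in every setting tried. The calls of CSLC12, TBL39 and XTH21 without a block were lost when most single arrays were left out. With the experiment as a block in the model, 5 rose and 8 fell, beside 4.33% and 7.35% of all probe sets. The 7 genes added by the block were GH9C1, TBL41 and CSLC5, which rose, and CSLC04, GH9B8, TBL25 and TBL45, which fell. PRP39 was not called, so the counts are the same over the 45 tested genes without it. The median difference was −0.10 over the 46 genes and 0.01 over all tested probe sets, and 30 of the 46 lay within 0.3 log2 units of 0.

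**Figure D1:**
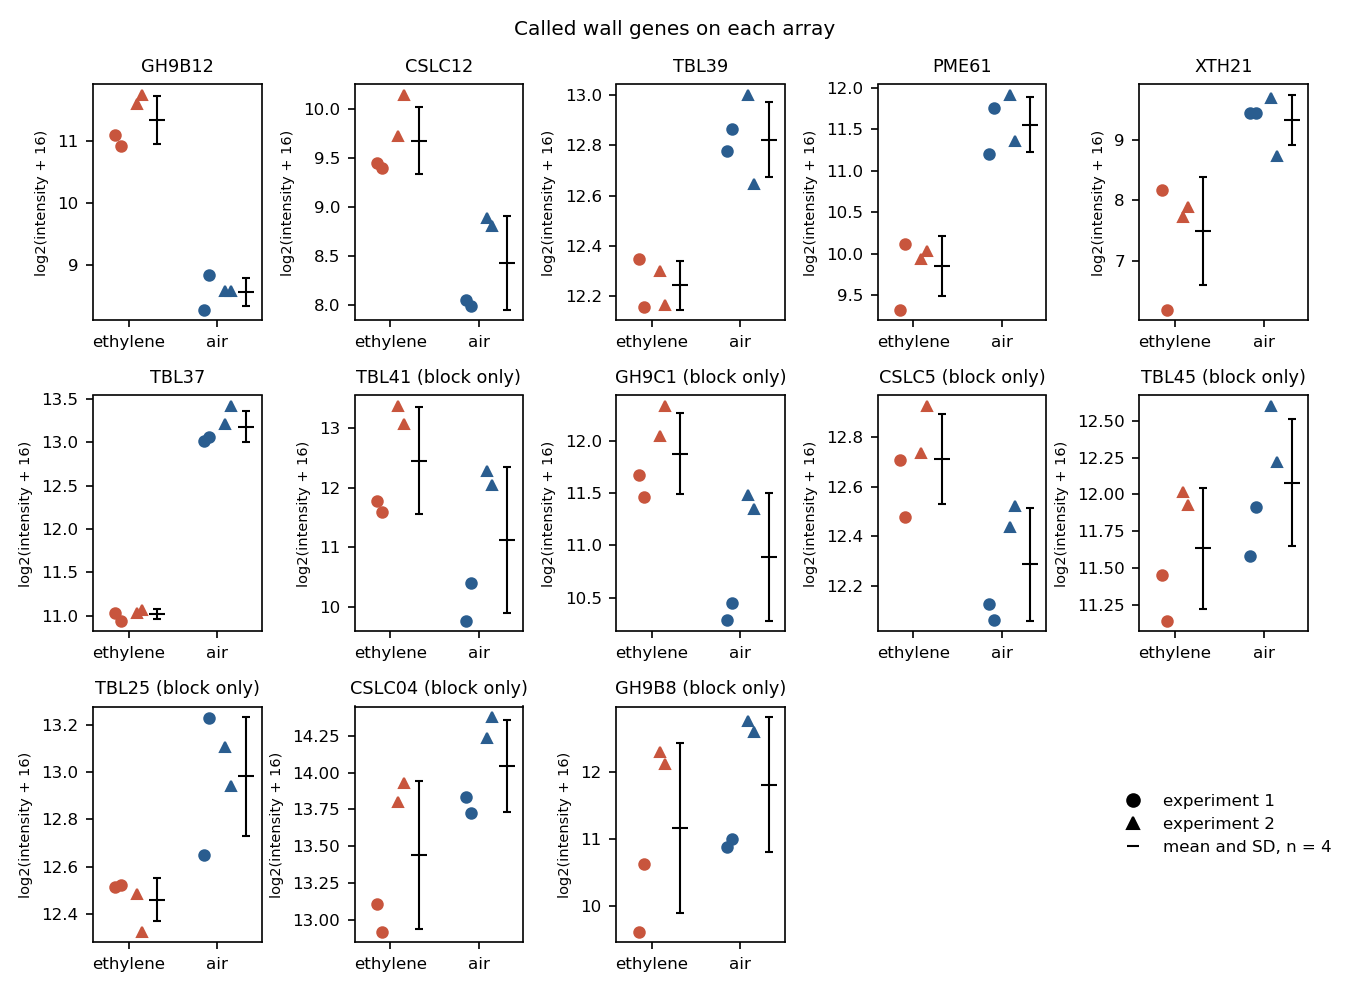
The 13 called wall genes on each array, as log2(intensity + 16), with ethylene left of air, circles for experiment 1, triangles for experiment 2, and the mean with its SD (n = 4 per group) in black. Panels marked "block only" passed only with the experiment as a block: in GH9B8 and TBL41 the triangles stand far above the circles in both groups, while in TBL37 the 4 ethylene arrays lie close together and far below the 4 air arrays.

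Enzymes that make glucan and mannan backbones come first. The CSLC proteins are Golgi enzymes that synthesise the glucan backbone of xyloglucan. All 4 CSLC genes that the RefSeq symbols list were measured, and they differed in sign. CSLC12 (AT4G07960) had intensities of 681, 660, 833 and 1114 on the ethylene arrays 1-1, 1-2, 2-1 and 2-2, against 249, 237, 458 and 431 on the air arrays in the same order. Every ethylene array was above every air array, and experiment 2 was brighter than experiment 1 in both groups. The difference was 1.25 (SE 0.29, limma adjusted p = 0.0394), a 2.37-fold increase, with 1.09 in experiment 2 and 1.41 in experiment 1. This call was close to the threshold and ended without any 1 array other than air 2-1 (adjusted p of 0.0548 to 0.119), without a filter (0.0678), with replicas as a random block (0.147) and in experiment 1 alone (0.0931). With the experiment as a block the limma adjusted p was 0.00143, and CSLC12 passed with any 1 array left out.

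CSLC5 (AT4G31590) had 6673, 5693, 6813 and 7765 on the ethylene arrays, against 4452, 4251, 5532 and 5873 on the air arrays. It was higher in ethylene within each experiment, although ethylene 1-2 fell below air 2-2. Its difference of 0.43 (SE 0.16) had an adjusted p of 0.221, and it passed with the experiment as a block (limma adjusted p = 0.0216). That call ended without air 1-2, air 2-1, ethylene 1-1 or ethylene 2-2 (adjusted p of 0.0575 to 0.0785). CSLC04 (AT3G28180) had the opposite sign. It had 8829, 7743, 14250 and 15590 on the ethylene arrays, against 14556, 13540, 19286 and 21228 on the air arrays, which is lower with ethylene within each experiment. The difference was −0.60 (SE 0.25, limma adjusted p = 0.288), and with the block the adjusted p was 0.00229. CSLC6 (AT3G07330) averaged 3277 ± 381 in ethylene and 3104 ± 272 in air (SD, n = 4 each), and its difference of 0.07 had a 95% interval of −0.24 to 0.39.

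In the families CSLA, CSLD and GAUT only 1 gene each was tested, and none passed. RefSeq symbols list 7 CSLA, 6 CSLD and 13 GAUT genes, so most of these families went untested. CSLD2, which acts in wall synthesis at the tip of root hairs, averaged 9180 ± 1793 in ethylene and 8016 ± 762 in air, a difference of 0.18 (limma adjusted p = 0.739). CSLA03, of the family that makes glucomannan, had a difference of −0.18 (adjusted p = 0.849), with −0.57 in experiment 2 and 0.22 in experiment 1. GAUT15, of the family that synthesises the pectin homogalacturonan, had −0.17 (adjusted p = 0.785). CSLA01 was under the filter.

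Endoglucanases of glycosyl hydrolase family 9 cut beta-1,4-glucans. The GH9A enzymes are anchored in the membrane, the GH9B enzymes are secreted, and the GH9C enzymes carry an added carbohydrate-binding module. The largest increase among the 46 tested genes was that of GH9B12 (AT2G44570). It had 2192, 1929, 3109 and 3416 on the ethylene arrays, against 296, 443, 369 and 369 on the air arrays. Every ethylene array was far above every air array, and the air arrays lay close together. The difference was 2.77 (SE 0.23, limma adjusted p = 0.000137), and with the block the adjusted p was 3.54e-07. In every setting tried the gene passed, with differences from 2.45 to 3.09.

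The gene next to it on chromosome 2, GH9B11 (AT2G44560), has no other protein-coding gene between itself and GH9B12. Its intensities were 30.1, 7.8, 9.4 and 28 on the ethylene arrays, against 5.6, 7.6, 107.5 and 2.8 on the air arrays, and it lay under the filter. The neighbours GH9B16, GH9B17 and GH9B18 on chromosome 4 did not pass either. GH9B16 and GH9B17 lay under the filter, and GH9B18 averaged 395 ± 62.5 in ethylene and 458 ± 40.8 in air.

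GH9B8 (AT2G32990) had 772, 1575, 5004 and 4418 on the ethylene arrays, against 1865, 2033, 6891 and 6188 on the air arrays. Experiment 2 stood above experiment 1 in both groups, and within each experiment the ethylene arrays were lower. The difference of −0.64 had a wide error without the block (SE 0.62, limma adjusted p = 0.762) and an SE of 0.19 with it (adjusted p = 0.0362). Only the omission of ethylene 1-2 or 2-1 left the blocked call of GH9B8 in place, and omitting any of the other 6 arrays gave limma adjusted p-values of 0.0516 to 0.114. The 4 other tested GH9B genes did not pass, and their differences ranged from −0.22 for GH9B18 to 0.28 for GH9B13. Of these, GH9B13 averaged 24389 ± 7578 in ethylene and 19367 ± 1581 in air, and GH9B7 averaged 18398 ± 1536 in ethylene and 15849 ± 2387 in air.

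Of the GH9C genes, GH9C1 (AT1G48930) had 3247, 2805, 4218 and 5152 on the ethylene arrays, against 1227, 1384, 2842 and 2600 on the air arrays. It was higher with ethylene in both experiments, by 0.77 in experiment 2 and 1.20 in experiment 1, and the groups overlapped only because experiment 2 was brighter. The difference over all arrays was 0.99 (SE 0.30, limma adjusted p = 0.112), and with the block the adjusted p was 0.000247 and the call held with any 1 array left out. GH9C2 and GH9C3 did not pass, with differences of −0.18 and −0.14 and 95% intervals of −0.58 to 0.22 and −0.81 to 0.54. In the GH9A family only GH9A3, also called KOR3, was tested, with a difference of −0.29 (SE 0.47, adjusted p = 0.886).

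**Figure D2:**
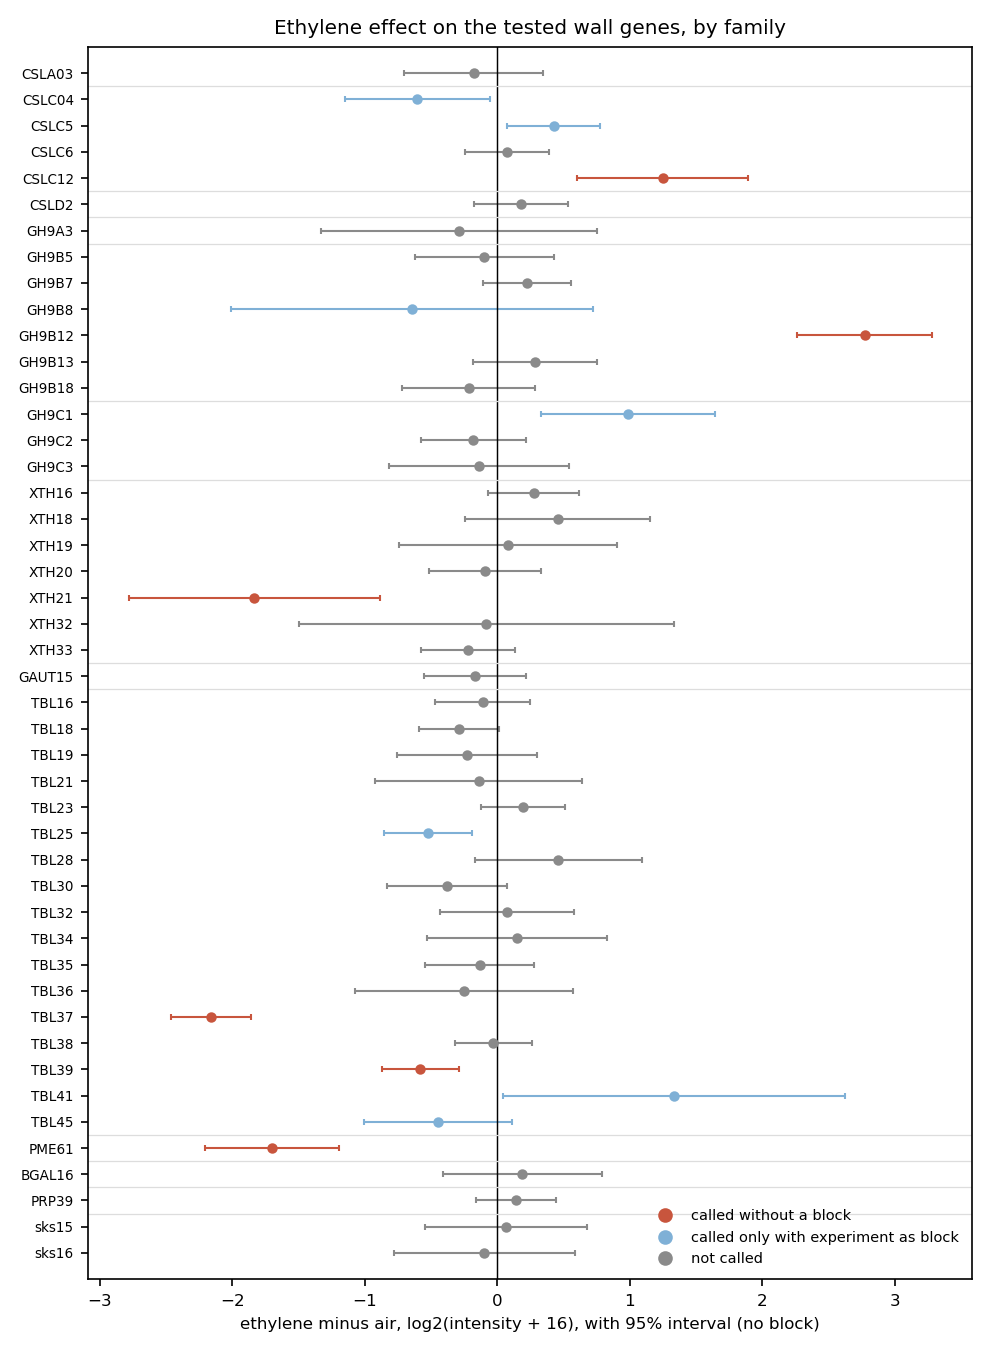
Ethylene minus air for each of the 46 tested genes on the log2(intensity + 16) scale, with the 95% interval of the model without a block, in family order from glycan synthases at the top to SKS genes at the bottom. GH9B12 at 2.77 stands apart to the right, TBL37 at −2.16, XTH21 at −1.83 and PME61 at −1.70 to the left, and most other genes of the same families lie near 0.

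Xyloglucan endotransglucosylase/hydrolases (XTH) cut xyloglucan chains and rejoin or hydrolyse them. Of 7 tested XTH genes 1 fell and 6 were not called, with or without the block. XTH21 (AT2G18800) had 271.2, 57.2, 196.7 and 221.5 on the ethylene arrays, against 679, 681, 811 and 410 on the air arrays. All ethylene arrays were below all air arrays, and ethylene 1-2 was dimmer than the other 3. The ethylene intensities lay within the range of the untested genes (2.7 to 424.7), so XTH21 cleared the filter through its brighter air arrays. The difference was −1.83 (SE 0.43, limma adjusted p = 0.0399). Leaving out any 1 array other than ethylene 1-1 or ethylene 1-2 ended the call (0.0521 to 0.121), as did no filter (0.0611), replicas as a random block (0.272) and experiment 2 (0.0577) or experiment 1 (0.0719) alone. With the experiment as a block the adjusted p was 0.00784 and it held with any 1 array left out.

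XTH18 and XTH19 are adjacent genes on chromosome 4 whose expression in Arabidopsis roots is well known. XTH18 had 10456, 15634, 25161 and 27182 on the ethylene arrays, against 9307, 13334, 19838 and 12822 on the air arrays, a difference of 0.46 (limma adjusted p = 0.628, or 0.131 with the block). XTH19 had 10033, 12425, 27476 and 32640 on the ethylene arrays, against 12045, 14754, 22718 and 22064 on the air arrays, a difference of 0.08 (adjusted p = 0.969). In both genes the ethylene arrays of experiment 2 were the brightest of the 8. XTH16, XTH20, XTH32 and XTH33 had differences between −0.22 and 0.27, and none passed. XTH29 lay under the filter.

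TRICHOME BIREFRINGENCE-LIKE (TBL) proteins are a large Golgi family, and those with a known activity transfer acetyl groups to wall polysaccharides. Of 17 tested TBL genes none rose and 2 fell without the block, and 1 rose and 4 fell with it, beside 1.56% and 2.55% of all tested probe sets without the block and 4.33% and 7.35% with it. TBL37 (AT2G34070) had 2083, 1950, 2067 and 2132 on the ethylene arrays, against 8284, 8536, 9469 and 10905 on the air arrays. The ethylene arrays spanned a narrow range, with a mean of 2058 ± 76.9, against 9298 ± 1186 in air. The difference was −2.16 (SE 0.14, limma adjusted p = 2.28e-05), and intensity was 4.47-fold lower with ethylene. It passed in every setting tried and was −2.27 in experiment 2 and −2.05 in experiment 1.

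TBL39 (AT2G42570) fell by less. It had 5202, 4552, 5029 and 4577 on the ethylene arrays, against 7005, 7451, 8170 and 6402 on the air arrays, with no overlap. The difference was −0.58 (SE 0.13, limma adjusted p = 0.0345), with −0.59 in experiment 2 and −0.57 in experiment 1. The call without a block ended without any 1 array (0.0501 to 0.107), with median scaling (0.0709), without an intensity trend (0.0678), with replicas as a random block (0.227) and in experiment 2 (0.0819) or experiment 1 (0.0788) alone. With the experiment as a block over all arrays the limma adjusted p of TBL39 was 0.0039. TBL38 (AT1G29050), at 8183 ± 292 in ethylene and 8383 ± 946 in air, had a difference of −0.03 with a 95% interval of −0.32 to 0.26.

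TBL41 (AT3G14850) had the opposite sign to TBL37 and TBL39. Its intensities were 3484, 3069, 10574 and 8623 on the ethylene arrays, against 854, 1328, 4977 and 4192 on the air arrays. It was higher with ethylene in each experiment, by 1.06 in experiment 2 and 1.60 in experiment 1, and the air arrays of experiment 2 exceeded the ethylene arrays of experiment 1. The difference of 1.33 had an SE of 0.58 without the block (limma adjusted p = 0.33) and of 0.17 with it (adjusted p = 7.6e-05).

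TBL25 averaged 5631 ± 349 in ethylene and 8163 ± 1365 in air, and every ethylene array was below every air array. Its difference of −0.52 passed only with the block (limma adjusted p = 0.096 without and 0.0179 with it). TBL25 is known as a mannan acetyltransferase, as is TBL23. TBL23 averaged 1866 ± 145 in ethylene and 1625 ± 89.9 in air and also showed no overlap. Its difference was 0.20 (limma adjusted p = 0.655, or 0.414 with the block). Of the 3 genes in this mannan group, TBL26 lay under the filter and was not tested. TBL45, at 3260 ± 892 in ethylene and 4462 ± 1344 in air, had a difference of −0.44 that passed only with the block (adjusted p = 0.512 without and 0.0454 with it). The blocked calls of TBL25 and TBL45 ended without air 1-2, air 2-1 or ethylene 2-2, and that of TBL45 also without ethylene 1-2 or 2-1.

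The TBL genes known to act on xylan, the main hemicellulose of secondary walls, were TBL28, TBL30, TBL32, TBL34 and TBL35. None of these 5 passed in either model, with differences from −0.38 for TBL30 to 0.46 for TBL28. TBL28 and TBL30 lie next to each other on chromosome 2 and had opposite signs. The probe set of TBL32 is of a type that can bind several related transcripts.

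Pectin methylesterases remove methyl groups from homogalacturonan, which changes how the pectin gels and how stiff the wall is. PME61 (AT3G59010, also called PME35) was the only gene measured whose symbol is PME and a number. It had 627, 1100, 966 and 1037 on the ethylene arrays, against 2341, 3457, 3838 and 2603 on the air arrays. The highest ethylene array lay well below the lowest air array. The difference was −1.70 (SE 0.23, limma adjusted p = 0.00197), a 3.25-fold lower intensity with ethylene, with a difference of −1.64 in experiment 2 and −1.76 in experiment 1. It passed in every setting tried.

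The remaining enzymes and wall proteins did not pass. BGAL16, a beta-galactosidase gene, averaged 504 ± 108 in ethylene and 447 ± 143 in air, a difference of 0.19 (limma adjusted p = 0.86). The SKS proteins resemble the wall-associated multicopper oxidase-like protein SKU5. Of them sks16 had a difference of −0.10 (adjusted p = 0.951) and sks15 of 0.07 (adjusted p = 0.966), with 95% intervals of −0.78 to 0.59 and −0.55 to 0.68, so the arrays leave changes of those sizes undetected. PRP39 had a difference of 0.14 (adjusted p = 0.765).

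Separation of the arrays was also counted without a model. Over all 8 arrays, 3 of the 46 genes had every ethylene array above every air array and 6 had every ethylene array below, beside 4.19% and 6.29% of all tested probe sets. Within each experiment taken by itself, both ethylene arrays were above both air arrays in 7 genes and below in 9, beside 9.72% and 11.7% of all tested probe sets. These 16 genes were the 13 called genes with TBL18, TBL23 and TBL28. The sign of the difference was the same in both experiments for 33 of the 46 genes, among them all 13 called with the block. A call with the block favours genes of equal sign, so the signs of these 13 are no separate support. The share of equal signs over all probe sets was not counted.

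The size of the ethylene effect was compared between the experiments. In none of the 46 genes was a difference in effect detected, nor in any other probe set (0% of those tested, limma adjusted p of 0.107 or more). With 2 arrays per group and experiment, sizeable differences can go undetected. For GH9A3 the estimate was 1.05 with an SE of 0.83, and for XTH21 it was 0.86 with an SE of 0.81. At an unadjusted p under 0.05 the effect differed in 2 of the 46, beside 5.76% of all probe sets. These were XTH19 (limma adjusted p = 0.805) and CSLA03 (limma adjusted p = 0.86). XTH19, which was named after its values were seen, had effects of 0.42 in experiment 2 and −0.26 in experiment 1.

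**Figure D3:**
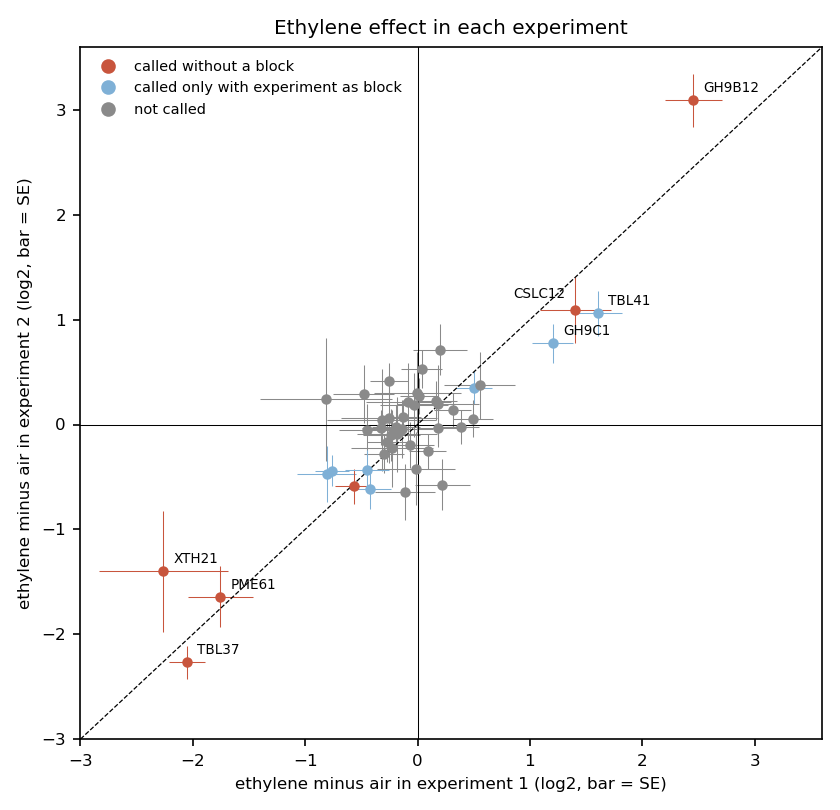
Ethylene minus air in experiment 2 (vertical) against experiment 1 (horizontal) for the 46 tested genes on the log2(intensity + 16) scale, with SE bars and a dashed line of equal effects. The called genes lie at the lower left and upper right, where their selection favours them. GH9B12 is at 3.09 in experiment 2 and 2.45 in experiment 1, and TBL37 at −2.27 in experiment 2 and −2.05 in experiment 1.

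The experiments themselves differed in many probe sets across the array, some of these genes among them. Averaged over both groups, 12 of the 46 were higher and 1 was lower in experiment 2 than in experiment 1, beside 18.2% and 12.4% of all tested probe sets. The difference was largest in XTH32, which had 5627 and 5690 on the ethylene arrays and 6659 and 6868 on the air arrays of experiment 2, against 1580 and 1483 on the ethylene arrays and 1526 and 1350 on the air arrays of experiment 1. This is a difference of 2.05 (limma adjusted p = 1.38e-07), while its ethylene difference was −0.08. GH9B8 differed by 1.91 (adjusted p = 9.06e-06), TBL41 by 1.81 (adjusted p = 4.92e-06) and XTH19 by 1.08 (adjusted p = 0.000141). TBL36 was the gene lower in experiment 2, at −1.03 (adjusted p = 0.000889), and BGAL16 had the next lowest difference, −0.39, which did not pass.

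Of the 7 genes that passed only with the block, 6 differed between experiments, the exception being TBL25. Of the 6 that passed without it, 1 did, which was CSLC12. The block removes such a difference from the error, which goes with the smaller SE of GH9B8 and TBL41.

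**Figure D4:**
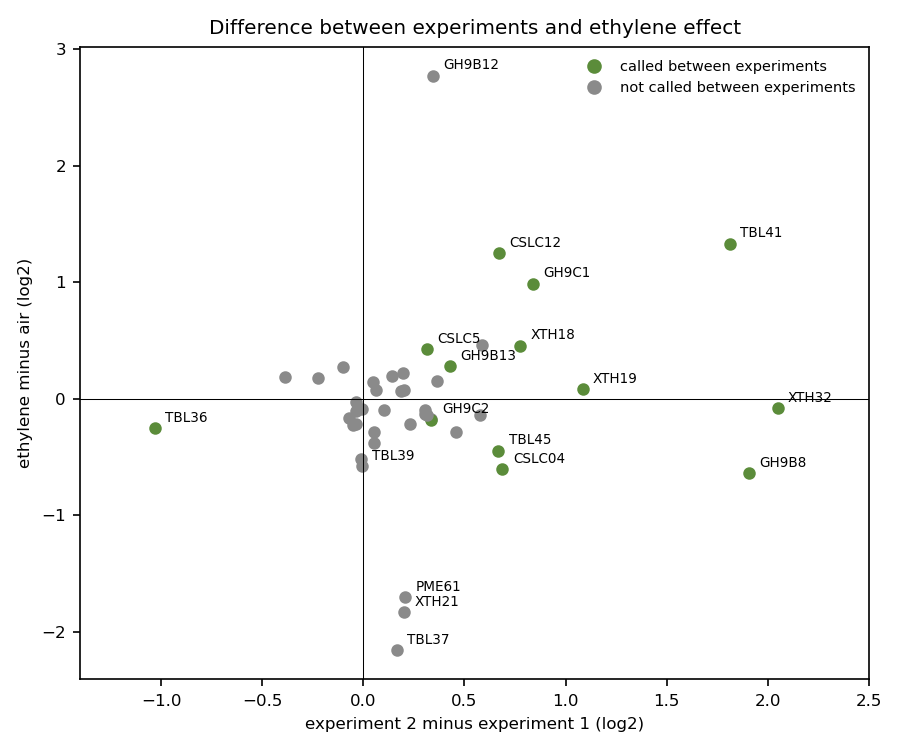
Ethylene minus air (vertical) against experiment 2 minus experiment 1 (horizontal) for the 46 tested genes, both on the log2(intensity + 16) scale, with genes that differed between experiments in green. XTH32, GH9B8 and TBL41 lie far to the right, TBL36 alone to the left, and TBL37, XTH21, PME61 and GH9B12 lie near 0 on the horizontal axis.

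Other wall genes were read from lists of names. Expansins loosen the wall without cutting its polymers. Of 14 tested expansin and expansin-like genes 1 rose (EXPA7) and 4 fell, and 2 rose and 7 fell with the block, beside the same 1.56% and 2.55% of all tested probe sets without the block and 4.33% and 7.35% with it. The 4 that fell were EXPB1, which averaged 1422 ± 494 in ethylene and 5664 ± 1280 in air (difference −2.02, limma adjusted p = 0.0015), EXPA8, EXPA15 and EXLA2 (difference −0.89, adjusted p = 0.0054). Of 2 tested wall-sensing receptor kinase genes, THE1 fell to 3313 ± 1005 in ethylene, against 6156 ± 630 in air (difference −0.94, adjusted p = 0.0354), and FER had a difference of −0.06. COB, which encodes the GPI-anchored protein COBRA needed for oriented cellulose deposition, differed by 0.23 and did not pass. In the pectin list the pectin methylesterase gene ATPMEPCRB differed by 0.44 and passed only with the block (adjusted p = 0.621 without and 0.0164 with it), a sign opposite to that of PME61, and ADPG1 differed by −0.04. GUT2 of xylan synthesis, GER2 of nucleotide sugar synthesis and the extensin gene HRGP1 did not pass.

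Markers of cell types were looked up by gene name, and few were found. Markers on probe sets without a gene name are missed here. Of 15 root hair markers 3 were found by name (EXPA7, EXPA18 and XTH26). Their summed intensity was 6039 to 8250 on the ethylene arrays, against 3220 to 5526 on the air arrays. Of these 3 markers 2 rose without the block and 3 with it, beside 1.56% and 4.33% of all tested probe sets. The air intensities of XTH26 (14.7 to 209.1) lay within the range of the untested genes (2.7 to 424.7). It thus cleared the filter through its brighter ethylene arrays, which favours a rise. The list was also chosen with earlier results of these data known, so this count is no separate support. CSLD2, which acts in root hairs but was not on this list, did not pass (difference 0.18, limma adjusted p = 0.739). The part of root hairs in the increases of GH9B12, CSLC12, GH9C1, TBL41 and CSLC5 was not tested. Of 16 xylem and secondary wall markers GUT2 alone was found. It lay at 1572 to 3614 on the ethylene arrays and 1194 to 2990 on the air arrays. Of 2 genes listed for dark-grown seedlings, PORB alone was found. It lay between 35268 and 68256 on the ethylene arrays and between 27524 and 35070 on the air arrays. It passed only with the block (limma adjusted p = 0.172 without and 0.0247 with it). No marker of pollen, root cap or seed was found by name, so nothing is known here of these lists.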

How the data were processed

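The values were the authors' deposited table of linear intensity values, 1 per array for each of 22810 probe sets. How the authors summarised and scaled them is not given in the sources used here; the mean without the highest and lowest 2% was between 2500.17 and 2500.22 on every array. Intensities were used as log2(intensity + 16). The 64 array controls and the dimmest 30% of probe sets were left out, and 15922 were tested with limma 3.58.1 (lmFit, eBayes with trend) in R 4.3.3, ethylene against air, with Benjamini-Hochberg adjustment over all of them and a threshold of 0.05. The fits were tested on simulated data. Tables used Python 3.11.15 and pandas 2.3.3, and plots matplotlib 3.10.9.

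The labels mark experiments shared by both groups. Deviations from group means correlated at 0.28 to 0.593 between ethylene and air arrays of the same experiment and at −0.551 to −0.252 otherwise, so the experiment was also fitted as a block. A second model with a mean per experiment and group gave the effects within experiments, and the model with group and experiment as terms gave the difference between experiments. Alternatives were offsets of 1 and 64, other filters, median and quantile scaling, other blocks, no trend, each experiment alone and each array left out.

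Gene names came from the array annotation, in which 13513 probe sets name 1 gene, and all 59 genes matched RefSeq (TAIR10.1). No build is given for the array, so no coordinates are printed. The 2 probe sets that name several GH9B genes were left out. Named were all genes called with or without the block, the gene with the smallest p in each family without a call, and the ends of the difference between experiments, with others given by range or named for contrast after their values were seen. The count of separation within each experiment was also added after seeing the data. Genes and lists were chosen with earlier results of these data known. A planned search of promoters and proteins was not run, and the number of arrays limits the precision.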

Additional observations from a re-analysis of the deposited data

Results flagged for a closer look

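In GH9B5 both ethylene arrays were above both air arrays in experiment 2 and below them in experiment 1. It had 874 and 937 on the ethylene arrays and 719 and 757 on the air arrays of experiment 2, and 490 and 630 on the ethylene arrays and 874 and 699 on the air arrays of experiment 1. The effect in experiment 2 exceeded that in experiment 1 by 0.77, and the limma test of this difference did not pass (limma adjusted p = 0.86).

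In 3 of 92 groups of 4 arrays 1 array stood apart from the other 3 by Dixon's test, which is 3.26%, while chance flags about 1 in 20. On ethylene 2-2, GH9B18 was dimmer than on the other ethylene arrays, at 302.1, and XTH33 was brighter, at 5349.8. On ethylene 2-1, TBL34 was brighter than on the others, at 1424. None of these genes passed.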

How the results depend on the processing

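GH9B12, TBL37 and PME61 passed in every setting tried. The count of genes that rose, 2, was 1 without a filter, with 50% of probe sets left out (CSLC12 was then not tested) and with replicas as a random block (correlation 0.458), 4 in experiment 2 alone, 3 in experiment 1 alone, 5 with the experiment or the 4 numbered pairs as a replicate block and 6 with averaged replicas and the block, which added XTH18. The count that fell, 4, was 8 with the experiment as a block or averaged replicas and 7 with the pairs. It was 2 with the random block or in experiment 2 alone. It was 3 in experiment 1 alone, without a filter, with median scaling and without an intensity trend. It was also 3 with 50% of probe sets left out (XTH21 was then not tested). With 1 array left out these counts ranged from 1 to 2 and from 2 to 3, and with the block kept, an alternative added after seeing the data, from 4 to 5 and from 5 to 7. Over all probe sets 689 rose and 1170 fell with the experiment as a block and 119 and 130 with the random block, against 249 and 406. With 1 array left out they ranged from 164 to 204 and from 214 to 315. Signs were followed for the 22 genes named by rule, and turned in 5 of them: CSLA03 (0.22) and XTH32 (0.092) in experiment 1 alone, and CSLD2 (−0.022), GH9A3 (0.24) and sks16 (0.057) in experiment 2 alone. Over all 46 tested genes 13 had opposite signs in the experiments. Without 1 array XTH32 ranged from −0.48 to 0.30, GH9A3 from −0.58 to 0.20 and sks16 from −0.31 to 0.20. The causes were not tested. The median over the tested genes ranged from −0.15 to −0.0031, and the number that differed between experiments, 13, from 9 to 14, over the settings run. Without detection calls, how far dim genes stand above background is unknown.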
